A study of Mus musculus with 6 samples.

Results

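The thin filament of the sarcomere is built from muscle actins, tropomyosins, the troponin complex, and the tropomodulins and leiomodins that act at filament ends. Its genes were taken from the comparison of myotubes transfected with control siRNA (siCon) or with siRNA against the H19 lncRNA (siH19) by symbol: troponins C, I and T, tropomyosins, the Acta and Actc actins, tropomodulins and leiomodins. Of 22 mouse genes whose symbols matched, 13 were found among the 3019 features listed, and 9 were not. The table holds features that the authors marked as significant, so a gene that is absent has no value here and cannot be called unchanged. The absent genes were all 4 tropomyosins (Tpm1, Tpm2, Tpm3 and Tpm4), Tmod2, Tmod3, Tmod4, Lmod1 and Lmod3.

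In striated muscle, calcium binds to troponin C, troponin I then lets go of its block on actin, and troponin T passes the movement to tropomyosin, which opens the myosin sites on the filament. Each troponin subunit and each actin is encoded by several genes, used to different degrees in fast skeletal, slow skeletal and cardiac muscle. Developing skeletal muscle cells are known to express slow and cardiac forms alongside the fast ones, and cultured myotubes share this mixed make-up.

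The cells were C3H myoblasts, a mouse skeletal muscle line from a commercial source, which exit the cell cycle and fuse into multinucleated myotubes once serum is reduced. The siRNA was given at 40 h of differentiation in both groups, and RNA was taken 48 h later, at day 4 by the labels. Each group had 3 libraries of rRNA-depleted total RNA, from myotubes transfected in triplicate in multi-well plates. The values are log2 FPKM (fragments normalised to transcript length and to the size of the library), with 1 value per group in which the authors pooled the 3 libraries. Without values per library, neither the spread between replicates nor the depth is known, so no test was run, and every difference below is siH19 minus siCon as a description. The values carry 2 decimals, which leaves an uncertainty of 0.01 in a difference. Because the whole culture was lysed, a change in the share of fused cells and a change in RNA per cell cannot be told apart.

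The siRNA target H19 (chromosome 7, 142575490 to 142578146, mm10) stood at 11.20 log2 FPKM in siCon, and siH19 differed from it by -3.70, which leaves 7.69% of the control level. Of 10 myotube marker genes, 6 features were listed. The joint feature of the myosin heavy chains Myh1, Myh2, Myh3, Myh4 and Myh8 was at 9.57 in siCon and 10.25 in siH19 (log2 FPKM), Myog, a transcription factor of muscle differentiation, at 7.79 and 9.22, Chrna1, an acetylcholine receptor subunit, at 8.22 and 8.60, and myoglobin (Mb) at 7.61 and 8.95. The defining markers Des, Ttn and Cav3 were not listed. Summed over the 6 features, FPKM was 1826 in siCon and 3286 in siH19. All 6 were higher in siH19, as were 62.8% of all listed features, and 5 of the 6 by at least 1.5-fold, against 37.4%. Their median difference was 0.75, and their part in the differences below was not tested.

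All 13 thin filament features were higher in siH19 as deposited, although Lmod2, Tnnc2 and Tnnt1 were below 0 once the median difference of all listed features was subtracted. The differences ran from 0.34 to 2.28, with a median of 0.53 on the log2 scale (1.44-fold). Among all 3019 listed features, 62.8% were higher in siH19, and the median difference of all 3019 was 0.45 (1.37-fold). This median is over features marked significant, whose smallest absolute difference was 0.31. It is a point of reference within the list and does not estimate a shift of all genes. The thin filament genes were abundant, with a median siCon level of 9.52 against 2.90 over all listed features (log2 FPKM). Of the 13, 10 lay at 7.5 or above in siCon, and at that level 51 of 70 listed features (72.9%) were higher in siH19, with a median difference of 0.46. The 10 abundant thin filament genes are among those 51. Over the listed features that were higher in siH19, the median difference was 0.68, above the 0.53 of the thin filament genes.

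A difference of at least 1.5-fold was reached by 4 of the 13 (30.8%), namely Actc1, Tnnc1, Tmod1 and the feature that holds Tnni3. With the median difference of all listed features subtracted, 1 of the 13 reached it, Actc1 at 1.83, while Tnnc1 (0.38), Tmod1 (0.34) and Tnni3 (0.31) did not. The share of 30.8% is near the background, since 37.4% of all listed features were higher by at least 1.5-fold. None of the 13 was lower by this margin, against 16.9% of all listed features. The smallest absolute difference in the whole table was 0.31, so Lmod2 at 0.34 lay close to the lower limit of what was listed.

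**Figure D1:**
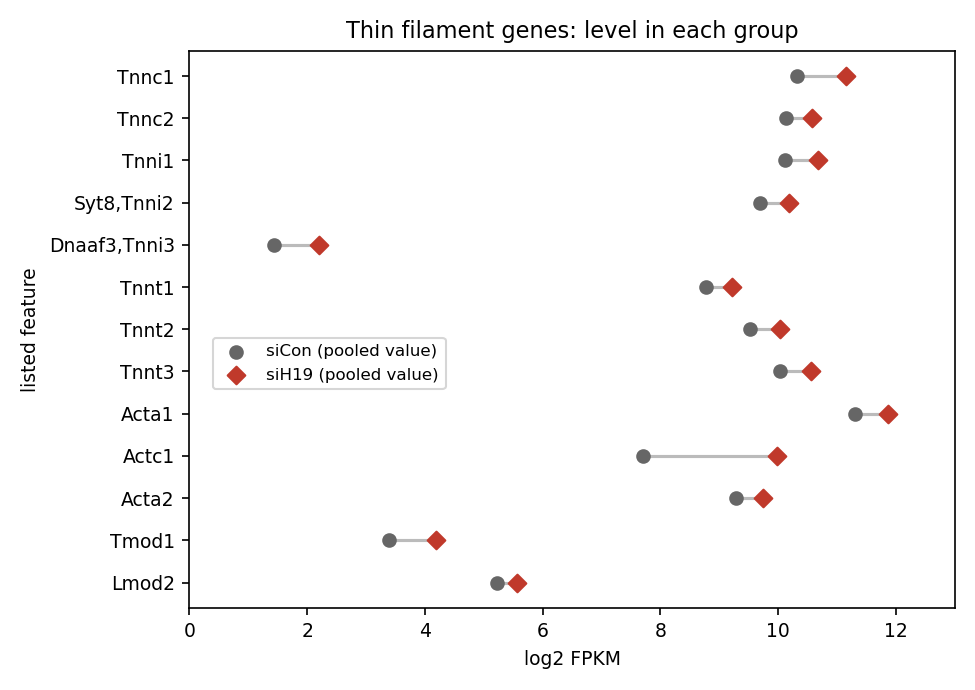
Level of each listed thin filament gene in log2 FPKM (x axis), with the pooled value of siCon as a grey circle and that of siH19 as a red diamond. There is 1 pooled value per group and no error bar; every diamond lies to the right of its circle, for Lmod2, Tnnc2 and Tnnt1 by less than the median difference of all listed features, and the gap is widest for Actc1 (7.70 to 9.98).

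**Figure D2:**
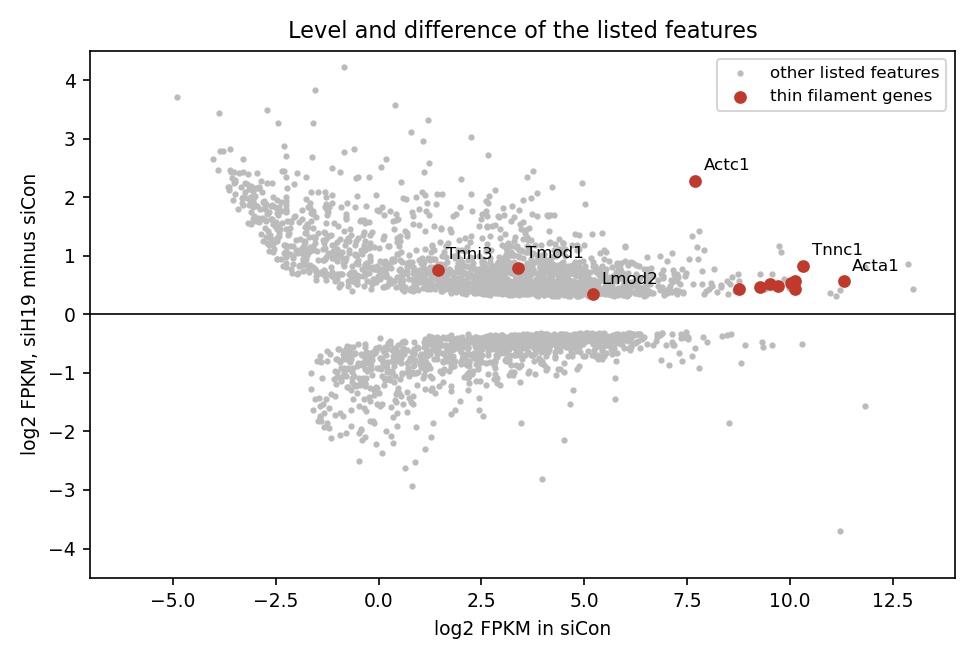
Difference between the groups (y axis, log2 FPKM in siH19 minus siCon) against the siCon level (x axis, log2 FPKM) for the listed features, with the 13 thin filament genes in red; 2 features at the floor of the table in siCon and 2 beyond the axes are not drawn. The thin filament genes all lie above 0, with Lmod2, Tnnc2 and Tnnt1 under the median of all listed features (0.45), and Actc1 stands above every other listed feature with a siCon level of 7.5 or more.

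The muscle actins held the widest contrast. Actc1, which encodes the actin of the heart and of developing skeletal muscle, went from a pooled FPKM of 208 under siCon to 1010 under siH19, or 7.70 and 9.98 on the log2 scale. This difference of 2.28 (4.86-fold) was the largest of the 70 listed features with a siCon level of at least 7.5, where the next was 1.43, and ranked 53rd of all 3019. Acta1, the actin of mature skeletal muscle, was the most abundant of the 13 listed thin filament genes in both groups. Its pooled FPKM was 2521 under siCon and 3717 under siH19 (difference 0.56, 1.47-fold). Acta2, the actin of vascular smooth muscle, had a pooled FPKM of 622 under siCon and 861 under siH19 (difference 0.47, 1.39-fold). In siCon, Acta1 was thus 12.1 times as abundant as Actc1, and in siH19 3.68 times. The order of Actc1 and Acta2 was also exchanged, with Actc1 below Acta2 in siCon (ratio 0.334) and above it in siH19 (ratio 1.17).

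As a share of the summed FPKM of these actins, Actc1 held 6.21% in siCon and 18.1% in siH19. Acta1 held 75.2% and 66.5%, and Acta2 18.6% and 15.4%. The actins summed to 3351 FPKM under siCon and 5588 under siH19, a ratio of 1.67. The ratio of Actc1 to Acta1 differed by 1.72 on the log2 scale between the groups.

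The actin genes resemble each other in sequence. The longest open reading frames of Actc1 and Acta1 in GENCODE M21 transcripts have 1134 bases each, of which 977 are the same position by position (86.2%), and those of Actc1 and Acta2 share 936 (82.5%). No window of 76 bases, the length of a read, was found letter for letter in both Actc1 and Acta1, and of windows of 25 bases 0.565% of those in Actc1 occur in Acta1. Reads placed with mismatches, and pseudogenes, were not examined, and the part of shared reads in these values was not tested.

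The sequences before the start sites of Actc1, Acta1 and Tnnc1 are shown. Among the 13 listed genes, these had the largest difference, the highest level and the largest difference among the abundant troponins. Each is the 250 bases upstream of the RefSeq start in GRCm38.p6 (the assembly of mm10), written 5′ to 3′ on the gene's own strand. Actc1 covers chr2:114052876-114053125 (minus strand), Acta1 chr8:123894776-123895025 (minus strand) and Tnnc1 chr14:31208062-31208311 (plus strand). Capitals mark the CArG box, the site bound by serum response factor, and the M-CAT motif CATTCC, bound by TEAD factors, each on either strand.
Actc1: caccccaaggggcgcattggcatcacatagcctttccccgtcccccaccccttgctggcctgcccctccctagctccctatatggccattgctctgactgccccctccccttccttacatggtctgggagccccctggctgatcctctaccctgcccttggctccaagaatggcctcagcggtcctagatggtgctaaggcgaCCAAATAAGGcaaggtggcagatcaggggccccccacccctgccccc
Acta1: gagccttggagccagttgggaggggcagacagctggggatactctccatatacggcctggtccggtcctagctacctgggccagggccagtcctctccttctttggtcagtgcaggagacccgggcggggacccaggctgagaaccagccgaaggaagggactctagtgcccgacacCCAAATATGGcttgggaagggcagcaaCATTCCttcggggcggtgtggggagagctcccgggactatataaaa
Tnnc1: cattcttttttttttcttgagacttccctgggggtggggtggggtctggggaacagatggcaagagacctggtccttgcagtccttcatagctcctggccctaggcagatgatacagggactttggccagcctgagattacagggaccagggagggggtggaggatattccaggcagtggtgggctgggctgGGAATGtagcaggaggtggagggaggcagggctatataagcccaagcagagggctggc
GENCODE M21 also holds an Actc1 transcript that begins further upstream, at 114053548, so the Actc1 window lies mostly in an intron of that transcript. The CArG box of Actc1 spans 47 to 38 bases before the start and that of Acta1 73 to 64. The M-CAT motif lies 46 to 41 bases before the start in Acta1 and, on the opposite strand, 58 to 53 in Tnnc1.

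RefSeq windows were matched for 11 of the 13 genes, Tnni2 and Tnnt3 being the others, and Tnni1 and Tnnt2 had an additional window each. A CArG box was found in 2 of the 11, Acta1 and Actc1, and in 1.47% of all 32851 windows of the same length. CATTCC was found in 5 of the 11 (Acta1, Acta2, Tmod1, Tnnc1 and Tnnt2), against 12.6% of all windows. The MEF2 motif was found in none of the 11 and in 2.92% of all windows, and the E-box CANNTG, the motif of myogenic bHLH factors, in 9 of the 11 and in 66.2% of all windows. These are matches of letters on either strand within 250 bases, and no overlap between motifs was removed.

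Among the troponins, all 8 genes were listed and all were higher in siH19 as deposited, against 62.8% of all listed features and 72.9% of those at 7.5 or above in siCon. The Tnni3 feature, at 1.44 in siCon, lies outside that abundant set, and the other troponins are themselves part of it. Tnnc2 and Tnnt1 were 0.01 under the median difference of all listed features. The genes for troponin C, the calcium sensor, differed most between isoforms. Tnnc1, used in slow skeletal and cardiac muscle, had a pooled FPKM of 1278 under siCon and 2272 under siH19 (10.32 and 11.15 on the log2 scale), a difference of 0.83 or 1.78-fold. Tnnc2, the fast skeletal form, had 1121 and 1520, a difference of 0.44 or 1.36-fold. The ratio of Tnnc1 to Tnnc2 was 1.14 in siCon and 1.49 in siH19, and Tnnc1 held 53.3% and 59.9% of the summed troponin C FPKM. The Tnnc2 locus extends 4205 bp beyond the annotated gene and takes in the coding gene Ube2c, and that of Tnnc1 overlaps Nisch, so the part of these neighbours in the ratio is unknown.

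Troponin I, the inhibitory subunit, kept nearly the same make-up in both groups. Pooled FPKM of Tnni1, the slow skeletal form, was 1105 under siCon and 1629 under siH19 (difference 0.56). The fast form Tnni2 was listed only together with its neighbour Syt8, which encodes a synaptotagmin, and this joint feature had 832 and 1168 (difference 0.49). The ratio of Tnni1 to the Tnni2 feature was 1.33 in siCon and 1.39 in siH19, a change of 0.07 on the log2 scale, for which rounding alone allows 0.02. The cardiac form Tnni3 was listed jointly with Dnaaf3, a gene for assembly of ciliary dynein arms that overlaps it in the annotation. That feature reached an FPKM of only 2.71 under siCon and 4.59 under siH19 (difference 0.76), or 0.14% and 0.164% of the summed troponin I. In both joint features, the part that comes from the troponin gene is unknown.

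Troponin T ties the complex to tropomyosin. Its fast form Tnnt3 had a pooled FPKM of 1046 under siCon and 1510 under siH19 (difference 0.53). Tnnt2, the cardiac form, had 734 and 1053 (difference 0.52), and the slow form Tnnt1 had 437 and 592 (difference 0.44). The order Tnnt3, Tnnt2, Tnnt1 was the same in both groups, and the share of each in the summed troponin T moved by less than 1 percentage point, from 47.2% to 47.9% for Tnnt3, from 33.1% to 33.4% for Tnnt2 and from 19.7% to 18.8% for Tnnt1. The ratio of Tnnt2 to Tnnt3 differed by -0.01 between the groups on the log2 scale and that of Tnnt1 to Tnnt3 by -0.09, against 0.39 for Tnnc1 to Tnnc2. The Tnnt3 locus begins 38024 bp before the annotated gene and takes in the coding gene Lsp1, whose part in these shares and ratios is unknown.

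**Figure D3:**
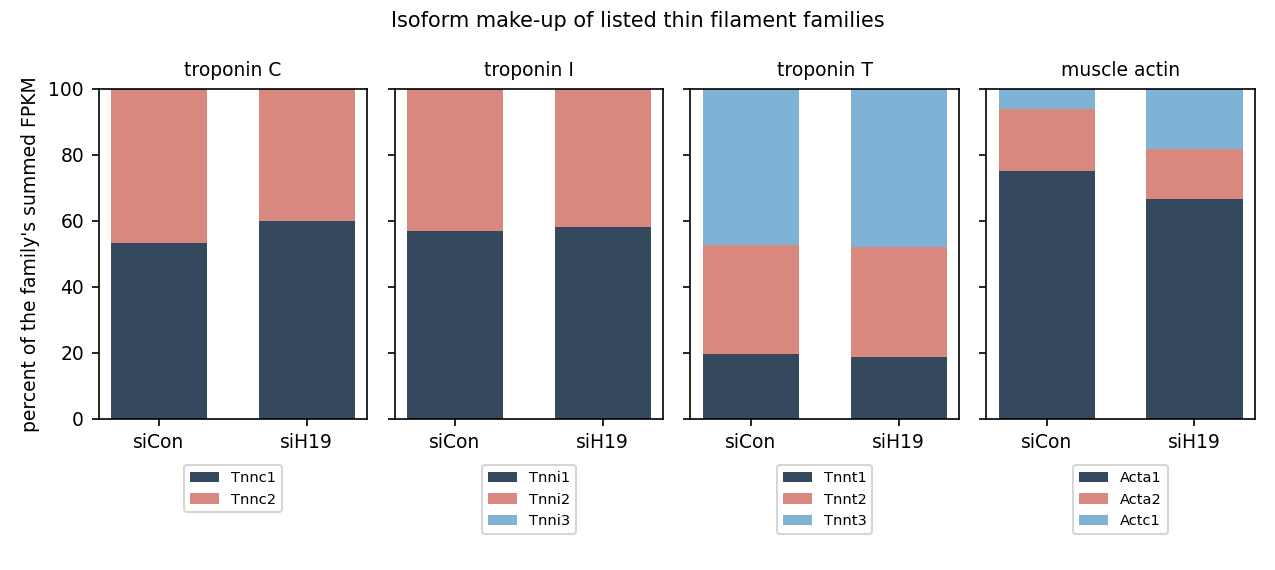
Share of each listed isoform in the summed FPKM of its family (y axis, percent) in siCon and siH19, for troponin C, I and T and for the muscle actins, from 1 pooled value per group with no error bar. Actc1 covers 6.21% of the actin bar in siCon and 18.1% in siH19, Tnnc1 53.3% and 59.9% of the troponin C bar, and among troponin I and T the widest shift was that of Tnni2 at -1.19 percentage points.

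Set out by muscle type, the fast skeletal genes (Tnnc2, Tnni2 and Tnnt3) had differences from 0.44 to 0.53 with a median of 0.49. The slow skeletal genes (Tnnc1, Tnni1 and Tnnt1) ranged from 0.44 to 0.83 with a median of 0.56, and the cardiac genes (Tnni3, Tnnt2 and Actc1) from 0.52 to 2.28 with a median of 0.76. None of the fast, 1 of the slow and 2 of the cardiac genes were higher by at least 1.5-fold, against 37.4% of all listed features. With the median difference of all listed features subtracted, Actc1 alone passed this margin (1.83), while Tnnc1 (0.38) and Tnni3 (0.31) did not. The ranges of these classes overlap, each class holds 3 genes, and Tnnc1 serves slow and cardiac muscle alike, so the order of the medians describes these genes only. Only the cardiac class holds an actin, Actc1, and the skeletal actin Acta1 (0.56) is in none of the classes. The cardiac troponins were Tnnt2 at 0.52, beside 0.53 for the fast Tnnt3, and the joint Tnni3 feature at 0.76. Without the joint features, the cardiac median is 1.40, as the mean of Actc1 and Tnnt2, so it rests on Actc1.

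**Figure D4:**
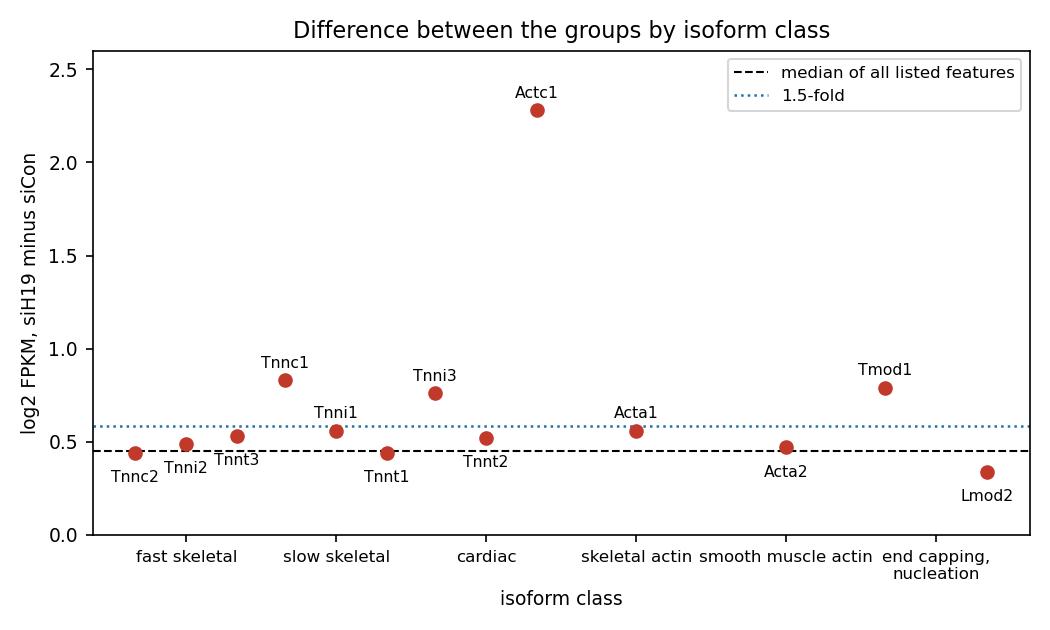
Difference between the groups (y axis, log2 FPKM in siH19 minus siCon) for each listed thin filament gene by isoform class (x axis), with the median of all listed features (0.45, dashed) and the 1.5-fold line (dotted). Each point is 1 gene from pooled values with no error bar; Actc1, Tnnc1, Tmod1 and Tnni3 lie above the dotted line and Lmod2 at 0.34 lies lowest.

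Genes that act at filament ends were represented by Tmod1 and Lmod2. Tmod1, which caps the pointed end of actin filaments, had a pooled FPKM of 10.5 under siCon and 18.1 under siH19, a difference of 0.79 or 1.73-fold. Its locus is also that of a listed feature for Tstd2, a neighbouring gene. Lmod2, a leiomodin that promotes the formation and lengthening of thin filaments, had 37.3 and 47.2, a difference of 0.34 or 1.27-fold, the smallest of the 13.

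Troponin I and troponin T genes lie side by side in the genome, and the members of a pair need not serve the same muscle type. In GENCODE M21, Tnni1 (slow) and Tnnt2 (cardiac) are separated by 25.4 kb on chromosome 1, and their differences were 0.56 and 0.52. Tnni2 and Tnnt3 (both fast) are separated by 54.4 kb on chromosome 7, with 0.49 and 0.53. Tnnt1 (slow) and Tnni3 (cardiac) are separated by 1.92 kb, also on chromosome 7, with 0.44 and 0.76. The fast pair shares a chromosomal region with the siRNA target. Tnnt3 (ENSMUSG00000061723.18, 142498836 to 142516009, plus strand) ends 28.6 kb from Nctc1 and 59.5 kb from H19, and Tnni2 (ENSMUSG00000031097.15, 142441808 to 142444410, plus strand) ends 131 kb from H19. Their differences of 0.53 and 0.49 were within the range of troponin genes on other chromosomes (0.44 to 0.83).

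The loci listed for the thin filament genes are those of assembled transcripts and can be wider than the annotated gene. The largest excess belonged to Tnnt3, whose locus (142460812 to 142517666) begins 38024 bp before the annotated start and takes in Lsp1, a coding gene with no feature of its own in the list. For 7 of the 13, the locus overlaps another annotated protein-coding gene, and whether strand was used in assigning reads is not given in the sources used here. The Actc1 locus (chromosome 2, 114047286 to 114054242) and that of Acta2 (chromosome 19, 34240336 to 34255373) overlap none. Acta1 (chromosome 8, 123891758 to 123894775) and Tnnc1 (chromosome 14, 31208312 to 31211711) match their annotated genes to within 24 bp at each end, and overlap Gm20388 and Nisch.

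Other genes of the thin filament were sparsely listed. Of 12 such genes, which include nebulin, the capping protein subunits and cofilin 2, Cap2 and Nebl had features. Cap2, an actin-binding protein, was at 5.28 in siCon and 5.83 in siH19 (difference 0.55 in log2 FPKM). Nebl, which encodes nebulette, a cardiac relative of nebulin, was in the opposite direction, at 0.46 and -1.23 (difference -1.69). None of the other actin genes Actb, Actg1 and Actg2 was listed.

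Of 18 genes that regulate muscle actin and troponin genes, 7 were listed, 6 of them higher and 1 lower in siH19, where 62.8% of all listed features were higher. Myog (difference 1.43), Tead1 (1.15), Mef2c (0.84) and Abra (0.83), an actin-binding activator of serum response factor signalling, were higher by at least 1.5-fold, as were 37.4% of all listed features. Mef2d (0.55) and Tead4 (0.48) were higher by less, and Myf5, a factor of early myoblasts, was lower (-0.38). Srf, Myod1 and the myocardin-related factors were not listed.

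Markers of other cell types were set beside these values. Of 13 cardiac markers, 3 features were listed, and each was higher by at least 1.5-fold, against 37.4% of all listed features: Myl4, an atrial and embryonic myosin light chain, at 9.74 in siCon and 10.90 in siH19, the joint feature of Myh6 and Myh7 at 2.64 and 4.13, and Nppb, a natriuretic peptide, at -0.78 and 0.47 (log2 FPKM). The cardiac transcription factor genes Nkx2-5, Gata4, Hand2 and Tbx5 were not listed. The listed cardiac markers summed to 862 FPKM under siCon and 1930 under siH19. Nearly all of this sum came from Myl4 in both groups, so it describes that gene and not the list. Of 9 smooth muscle markers, Acta2 and Synpo2 were listed. Acta2 is itself one of the 13 thin filament genes, so apart from it this list holds only Synpo2, at 4.68 log2 FPKM in siH19 and 0.48 below that in siCon. Of 8 fibroblast markers, Col1a1 and Postn were listed, with a summed FPKM of 54.8 under siCon and 80.4 under siH19. Values below 0 on the log2 scale are FPKM below 1, and the part of these markers in the thin filament differences was not tested.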

How the data were processed

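RNA-seq libraries (3 siCon and 3 siH19) were prepared with strand information from total RNA depleted of rRNA, and read as pairs of 76 bases. The authors aligned them to mm10 (the submitters' processing notes name TopHat 1.0.0 and TopHat2 2.0.7) and compared assembled transcripts with Cuffdiff 2.1.1. The gene annotation used is not given in the sources used here. The authors deposited log2 FPKM values, 1 per group with libraries pooled, rounded to 2 decimals, for features marked significant. Their fold change, q value and significance columns were not used. Depth per library is unknown, so no interval or test was computed.

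Features were matched by gene symbol. Differences, folds, family shares (linear FPKM) and counts past 1.5-fold were computed with Python 3.11.15, numpy 2.4.6, pandas 2.3.3 and matplotlib 3.10.9, and the functions were tested on simulated data. Named genes were all listed members, H19, listed genes of fixed lists and up to 4 per marker list. The members and lists were chosen with earlier results of these data known, and the level of 7.5 after seeing the data. Listed starts were taken as counted from 0, since for 484 of 2328 features the start is the annotated start minus 1 (65 equal it). Alternatives were other cut-offs, a level minimum, centring on the median, leaving out joint features, and summed values.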

Additional observations from a re-analysis of the deposited data

How the results depend on the processing

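No paired analysis was possible because the table gives 1 pooled value per group, and for the same reason no library could be left out. With the median difference of all listed features (0.45) subtracted, the number of thin filament genes higher by at least 1.5-fold was 1 in place of 4, 10 of 13 were still higher, the median over the 13 was 0.08 in place of 0.53, and Lmod2 (-0.11), Tnnc2 (-0.01) and Tnnt1 (-0.01) were below 0, the latter pair by no more than the rounding. Actc1 kept 1.83 and Tnnc1 0.38. With a cut-off of 2-fold, 1 gene passed, and with the lower cut-off all 13 did. The lower cut-off lies just above 0.31 on the log2 scale, the smallest absolute difference of any listed feature. A listed feature that was higher could therefore hardly fail it. That all 13 passed adds nothing to their being listed as higher. The log2 ratio of summed FPKM was 0.63 in place of the median of 0.53. Without the joint features, 3 genes passed 1.5-fold, 11 of 11 were higher, and the cardiac median was 1.40 in place of 0.76, which follows from the loss of 1 of its 3 genes. With Acta2 left out of the actin sum, Actc1 held 7.62% in siCon and 21.4% in siH19. A minimum of 0 for the log2 FPKM of the higher group changed nothing. It could remove none of the 13, since the lowest value in siH19 was 2.20, for the Tnni3 feature. No setting gave a gene lower by 1.5-fold. The settings for joint features in the class medians, for the count of higher genes and for the actin sum were chosen after seeing the data.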
